A study of Homo sapiens with 12 samples.

Results

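The comparison described here is the knock-down of SMRT against a scramble siRNA in U2OS cells that received no DNA damage, chosen by the sample titles: 2 arrays of siSMRT+vehicle cells and 2 arrays of siCtl+vehicle cells, 4 of the 12 arrays of the study. The titles of these 4 arrays read no-treatment, and vehicle is the word of the study's figure legend. U2OS is a human osteosarcoma line with functional p53. All groups were transfected with siRNA (against SMRT, against NCoR or scramble, called siCtl) and cultured for 2 days, after which the damaged groups received the DNA cross-linking drug cisplatin (CDDP) at 100 µM for 6 h. Each group has biological duplicates, and each duplicate was hybridised to a one-colour Illumina BeadChip, so precision is limited by 2 arrays a group. A knock-down lowers an mRNA without removing it, the siRNA for each gene was a mix of several, per the methods, and no rescue is part of the groups used here.

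SMRT is a corepressor: nuclear receptors that lack an activating ligand, and factors such as AP-1 and NF-kB in their repressing state, recruit it together with HDAC3, TBL1X and TBL1XR1, and the complex removes acetyl groups from histones and keeps the gene quiet. NCoR is its paralog and uses the same partners. Retinoic acid receptors, PPARs, LXRs, REV-ERBs, AP-1, NF-kB and BCL6 are among the factors known to recruit them. The knock-down is taken from the labels and was not checked in these values.

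Scanner values had array medians from 54.02 to 65.3. Replicate arrays correlated at 0.9945 to 0.9962 (log2 after quantile normalization, over the 14801 probes kept by the filter on signal). A gene was tested if a probe had a signal above 100 in both arrays of at least 1 group, which 9808 genes passed, and levels below are log2 intensities after background correction and quantile normalization. Of the osteoblast markers, 7 of 14 on the array passed the floor (RUNX2, SPARC, SPP1, ALPL and COL1A1 among them), while SP7, BGLAP, IBSP and DMP1 did not. The T, B and pan-leukocyte markers CD3E, MS4A1 and PTPRC and the epithelial markers CDH1, KRT5 and KRT14 were also under it. Other members of these lists passed the floor: the epithelial markers EPCAM, KRT8 and KRT18 and the blood cell markers CD14, CD68, HBA1 and LYZ.

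At an adjusted p under 0.05 in limma, 712 genes were higher in siSMRT than in siCtl cells (7.26% of the 9808) and 838 were lower (8.54%), which together make 15.8%. In all 1550 the 2 arrays of one group lay apart from the 2 of the other, as they did for 31% of all genes with siSMRT above and 28.2% with siSMRT below. Most changes were modest: 305 of the higher and 446 of the lower genes moved by at least 0.5 log2 units, and 17 and 23 by at least 1. The median change over all genes was 0.01 and the middle 90% lay between -0.49 and 0.44, with a median standard error (SE) of 0.114. With the replicate number as a block 1115 genes were higher and 1203 lower, including all 712 and all 838. Each of the 4 arrays bears on the counts: 253 genes were higher and 374 lower without siSMRT+vehicle replicate 1, 307 and 434 without siSMRT+vehicle replicate 2, 222 and 321 without siCtl+vehicle replicate 1, and 435 and 504 without siCtl+vehicle replicate 2. The split also depends on scaling. Higher genes are 45.9% of the calls after quantile normalization and 14.8% after median scaling (160 higher, 921 lower), which moves the median of all genes to -0.12, so the number of rises is relative to the scaling used.

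The gene raised most was KRT75, a keratin of hair follicles. Its level was 9.81 and 9.84 in siSMRT cells, against 7.78 and 7.82 in siCtl cells, a 4.06-fold difference (log2 fold change 2.02, SE 0.118, limma adjusted p = 4.03e-06). The spread within each group is a small part of the gap. MARCO, a scavenger receptor of macrophages, had 7.90 and 7.95 with siSMRT and 6.25 and 6.48 with siCtl (1.57, SE 0.15). DHRS3, which reduces retinal to retinol and is itself induced by retinoic acid, had 9.12 and 8.82 with siSMRT and 7.85 and 7.86 with siCtl (1.11, SE 0.104, adjusted p = 0.000159). The sugar-phosphate transporter gene SLC37A2 had 6.80 and 6.75 with siSMRT and 5.60 and 5.83 with siCtl (1.06). In none of these genes did the groups come near each other.

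For other large rises the siCtl arrays lay further apart. The natriuretic peptide gene NPPB had 9.29 and 9.56 in siSMRT cells and 7.63 and 8.61 in siCtl cells (log2 fold change 1.30, SE 0.245, adjusted p = 0.00482), and the log2 fold change of NPPB was 0.81 without siCtl+vehicle replicate 1. LAMB3, a laminin chain of epithelial basement membranes, had 10.06 and 10.05 with siSMRT and 8.56 and 9.0 with siCtl (1.28, SE 0.182). The actin-bundling gene LCP1, typical of leukocytes, gave 9.25 and 9.06 with siSMRT and 7.83 and 8.09 with siCtl (1.19, SE 0.217). Beside MARCO and LCP1, the 12 blood cell markers on the array summed to intensities of 947 and 947.8 in the siSMRT arrays and of 857 and 915.7 in the siCtl arrays, with 8 of the 12 under the floor and 0 of the 4 tested called. SNTB1, a syntrophin of the dystrophin complex, rose by 1.09 and FAM91A1, a gene of membrane trafficking, by 1.08. ZXDA (1.39, SE 0.116) has the near-identical paralog ZXDB (0.99), and H4C8 (1.12) belongs to the histone H4 genes, so that their probes may read more than 1 gene. The call of H4C8 was lost without siSMRT+vehicle replicate 1 (adjusted p = 0.0747), siSMRT+vehicle replicate 2 (0.187) or siCtl+vehicle replicate 1 (0.215), and with no filter on low signal (0.0508).

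The deepest fall was in CYBRD1, a ferric reductase that supplies iron for uptake. It had 6.80 and 6.81 in siSMRT cells, against 8.75 and 8.92 in siCtl cells (-2.03 on the log2 scale with an SE of 0.115, adjusted p = 4.03e-06), and a further probe for it gave -1.76. SMIM7, a small membrane protein gene, had 7.42 and 7.55 with siSMRT and 8.79 and 8.82 with siCtl (-1.32, SE 0.0912). TDG, the glycosylase that removes thymine from mismatches and oxidised methylcytosine, had 9.49 and 9.69 with siSMRT and 10.77 and 10.86 with siCtl (-1.22, SE 0.118). These falls are several times the distance between replicates. PIGS, a subunit of the enzyme that attaches GPI anchors, had 7.21 in both siSMRT arrays and 8.56 and 8.29 in the siCtl arrays (-1.22). IGFBP5, a binding protein of insulin-like growth factors, had 10.16 and 10.19 with siSMRT and 11.43 and 11.54 with siCtl (-1.31, SE 0.233).

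Further falls were CTNNBIP1, an inhibitor of beta-catenin (log2 fold change -1.19), WASHC4, a subunit of the endosomal WASH complex (-1.18), DENND11 (-1.16) and the collagen gene COL5A2 (-1.23), each called in every alternative processing, though WASHC4 changed by -0.74 with a background offset of 50. The atypical chemokine receptor ACKR3 had 9.03 and 9.24 with siSMRT and 10.66 and 10.24 with siCtl (-1.32). Its call was lost without siSMRT+vehicle replicate 1 (adjusted p = 0.0581) or siCtl+vehicle replicate 1 (0.0676). COL3A1 (-1.31) lost its call without siCtl+vehicle replicate 1 (0.054), and OLR1, a receptor for oxidised lipoprotein (-1.21), without siSMRT+vehicle replicate 1 (0.0542), siSMRT+vehicle replicate 2 (0.105) or siCtl+vehicle replicate 1 (0.143).

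**Figure D1:**
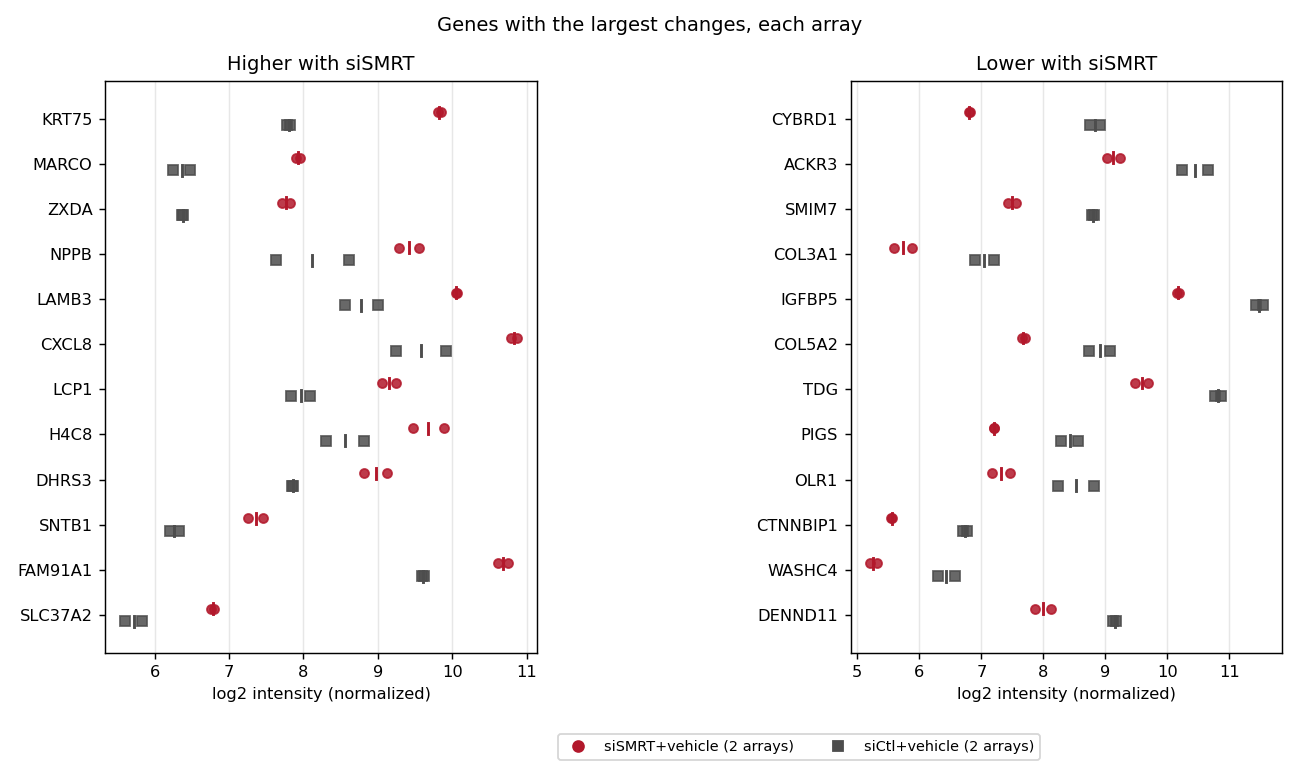
Levels (log2 intensity, horizontal axis) of the 12 genes with the largest rises (left) and the 12 with the largest falls (right). Red circles are the 2 siSMRT+vehicle arrays, grey squares the 2 siCtl+vehicle arrays and short lines the group means; the groups do not overlap for any of the 24 genes, and NPPB, CXCL8 and OLR1 have the widest spread between siCtl arrays.

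Of 8 tested members of the NCoR/SMRT complex, 0 were called in limma (median log2 fold change 0.01), with the replicate block as well. TBL1X, the beta-propeller subunit, had 9.89 and 9.98 in siSMRT cells and 9.74 and 9.83 in siCtl cells (0.15, SE 0.0881, adjusted p = 0.282), and HDAC3, the catalytic subunit, had 9.56 and 9.49 with siSMRT and 9.50 and 9.43 with siCtl (0.05, adjusted p = 0.763). Among 7 histone deacetylase genes 1 was higher and 2 lower (42.9% called, against 15.8% of all genes). HDAC1, the class I enzyme of other corepressor complexes, had 12.36 and 12.42 with siSMRT and 12.83 and 12.78 with siCtl (-0.42, SE 0.0899), and HDAC6, a cytoplasmic tubulin deacetylase, fell by 0.43. HDAC1 lost its call without siSMRT+vehicle replicate 1 (0.07) or siCtl+vehicle replicate 1 (0.0693), HDAC6 without siSMRT+vehicle replicate 2 (0.0537) or siCtl+vehicle replicate 1 (0.0598), and HDAC9 (0.80, or 0.43 without siCtl+vehicle replicate 1) without siSMRT+vehicle replicate 1 (0.167), siSMRT+vehicle replicate 2 (0.0921) or siCtl+vehicle replicate 1 (0.269) and with no filter (0.0542).

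Of 20 other corepressor genes 2 were higher and 2 lower (20% called, against 15.8% of all genes). RCOR3 and MTA1, the lower genes, lost their calls without any 1 of the 4 arrays. TLE3, a Groucho-type corepressor, had 7.67 and 7.73 in siSMRT cells, against 7.08 and 6.98 in siCtl cells (log2 fold change 0.67, SE 0.091, adjusted p = 0.000784). NRIP1, a corepressor of ligand-bound receptors, was higher by 0.53, a call lost without any 1 of the 4 arrays (adjusted p from 0.0588 without siCtl+vehicle replicate 2 to 0.123 without siCtl+vehicle replicate 1, with 0.12 without siSMRT+vehicle replicate 1 and 0.0729 without siSMRT+vehicle replicate 2) and with median scaling (0.17). Among 15 nuclear receptor genes RORA and PPARG were higher and NR1D2 lower (20% called, against 15.8% of all genes). RORA, an activator of clock genes, had 8.10 and 8.15 with siSMRT and 7.31 and 7.38 with siCtl (0.78, SE 0.0964). Its other probes gave 0.52, 0.14 and -0.50, the last called lower, so the RORA probes disagree. PPARG, the adipogenic receptor, rose by 0.37, but its other kept probe gave 0.23 and was not called (limma adjusted p = 0.168). PPARG was called also without siSMRT+vehicle replicate 2, but not without siSMRT+vehicle replicate 1, siCtl+vehicle replicate 1 or siCtl+vehicle replicate 2. With median scaling it was not called either (0.347, with a change of 0.23).

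Retinoic acid targets are genes that retinoid receptors hold down through corepressors until ligand arrives. Of 8 tested, 3 were higher (DHRS3, FABP5 and CYP26B1) and 0 lower (37.5% called, against 15.8% of all genes). Their median log2 fold change was 0.30, against 0.01 for all genes. FABP5, a fatty acid and retinoid carrier, had 11.81 and 11.71 in siSMRT cells, against 10.93 and 11.02 in siCtl cells (0.79, SE 0.091, adjusted p = 0.000358). It has processed pseudogenes, and its other probe gave 0.50 (adjusted p = 0.135). CYP26B1, which degrades retinoic acid, had 9.73 and 9.89 with siSMRT and 9.33 and 9.38 with siCtl (0.45). Its call was lost without siSMRT+vehicle replicate 2 (0.1) or siCtl+vehicle replicate 1 (0.0897) and with median scaling (0.167, with a change of 0.30). RARRES2, at the other end of the list, had 6.11 and 5.71 with siSMRT and 6.35 and 6.20 with siCtl (-0.36, adjusted p = 0.21).

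Targets of PPARs and LXRs, the receptors for fatty acids and oxysterols, lay on the other side: 1 of 15 was higher (FABP5) and 5 were lower. The share called was 40%, against 15.8% of all genes, and the median was -0.31. The cholesterol exporter ABCA1 had 5.83 and 6.03 in siSMRT cells and 6.69 and 6.74 in siCtl cells (log2 fold change -0.78, SE 0.123, adjusted p = 0.00193). The fatty acid transporter CD36 had 6.27 and 6.00 with siSMRT and 7.26 and 6.77 with siCtl (-0.88), and the desaturase SCD 10.54 and 10.43 with siSMRT and 11.26 and 10.96 with siCtl (-0.63). ABCA1 kept its call under every alternative. CD36 lost it without siSMRT+vehicle replicate 2 (0.0902) or siCtl+vehicle replicate 1 (0.116), and SCD without siSMRT+vehicle replicate 1 (0.0558), siSMRT+vehicle replicate 2 (0.0873) or siCtl+vehicle replicate 1 (0.129). SREBF1, the lipogenic regulator (-0.49), and MYLIP, which degrades the LDL receptor (-0.47), were also lower, but neither was called without any 1 of the 4 arrays (adjusted p from 0.0619 to 0.197 for SREBF1 and from 0.0945 to 0.213 for MYLIP). The list had 8 members lower with the replicate block, and 2, 1 and 1 lower without siSMRT+vehicle replicate 1, siSMRT+vehicle replicate 2 and siCtl+vehicle replicate 1. Of the 4 tested thyroid hormone and vitamin D targets only the osteopontin gene SPP1 was called (-0.77), and its call was lost without siSMRT+vehicle replicate 2 (0.138) or siCtl+vehicle replicate 1 (0.155).

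NF-kB targets, the genes of the inflammatory response that corepressors keep low in resting cells, gave 5 of 20 higher and 0 lower. This is 25% called, against 15.8% of all genes, with a median of 0.27. SOD2, the mitochondrial superoxide dismutase, had 12.28 and 12.06 in siSMRT cells, against 11.38 in both siCtl arrays (log2 fold change 0.79, SE 0.0973, adjusted p = 0.000476), and its other probe gave 0.98. The dendritic cell gene CD83 had 9.09 and 9.18 with siSMRT and 8.40 and 8.41 with siCtl (0.73), and the monocyte chemokine CCL2 had 8.09 and 8.10 with siSMRT and 7.35 and 7.58 with siCtl (0.63). These 3 genes kept their calls under every alternative. The cytokine IL1A had 5.84 and 5.68 with siSMRT and 5.12 and 5.31 with siCtl (0.55, adjusted p = 0.00432), and 0.0514 without siCtl+vehicle replicate 1. This dim probe of IL1A changed by 0.31 with a background offset of 50 and by 0.36 with no background correction. CXCL8, the neutrophil chemokine, had 10.88 and 10.79 with siSMRT and 9.24 and 9.91 with siCtl, a 2.39-fold difference whose size rests on how far apart the siCtl arrays lie (1.25, SE 0.317, adjusted p = 0.0206). A further probe for CXCL8 gave 1.28. Its call was lost without siSMRT+vehicle replicate 1 (0.107), siSMRT+vehicle replicate 2 (0.0785) or siCtl+vehicle replicate 1 (0.166). With the replicate block 8 members were higher, and without siCtl+vehicle replicate 1 there were 3.

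AP-1 subunits and immediate-early genes, which respond to growth factors and stress within minutes, gave 7 of 26 higher and 1 lower (median 0.22). The share called was 30.8%, against 15.8% of all genes. MYC, the growth-promoting transcription factor, had 11.49 and 11.47 in siSMRT cells, against 10.44 and 10.89 in siCtl cells (log2 fold change 0.82, SE 0.141, adjusted p = 0.00325). The stress factor ATF3 had 9.13 and 9.14 with siSMRT and 8.45 and 8.42 with siCtl (0.70, SE 0.141), and TRIB1, a pseudokinase, rose by 0.57. Further AP-1 family members were FOSL1 (0.72), MAFF (0.68), BATF3 (0.57) and JUN (0.50), all higher, while FOS itself had 7.32 and 7.72 with siSMRT and 7.80 and 7.69 with siCtl (-0.22, adjusted p = 0.562) and IER5L fell by 0.55. MYC and ATF3 kept their calls throughout. FOSL1, BATF3 and JUN were not called without siSMRT+vehicle replicate 1, siSMRT+vehicle replicate 2 or siCtl+vehicle replicate 1, nor was JUN without siCtl+vehicle replicate 2. FOSL1 changed by 0.37 without siCtl+vehicle replicate 1. MAFF was not called without siSMRT+vehicle replicate 2 or siCtl+vehicle replicate 1. With median scaling JUN (limma adjusted p = 0.244) and BATF3 (0.0733) lost their calls as well. TRIB1 lost its call without siSMRT+vehicle replicate 2 (0.0835) or siCtl+vehicle replicate 1 (0.122) and with median scaling (0.0958), with a change of 0.37 without siCtl+vehicle replicate 1, and IER5L without siSMRT+vehicle replicate 1 (0.0526). The list had 4, 2 and 2 members higher without siSMRT+vehicle replicate 1, siSMRT+vehicle replicate 2 and siCtl+vehicle replicate 1, and 4 with median scaling.

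Among called members of the NF-kB and AP-1 lists, promoters were looked at singly for CXCL8, IL1A, SOD2, CD83 and ATF3 only. Those of CXCL8 and IL1A, searched for both motifs, are shown because they have a match to the binding motif of AP-1 or NF-kB. SOD2 and CD83 were searched for the NF-kB motif alone and ATF3 for the AP-1 motif alone, with no match in the window searched. Promoters are RefSeq sequences (GRCh38.p14), 250 bases before to 50 after the first start listed for a gene, and 8075 of the 9808 genes tested were matched to one. Several genes have further starts, which were not searched. Capitals mark matches on either strand to AP-1 (TGANTCA) or NF-kB (GGNNNTTCC). CXCL8 (chr4:73740319-73740618, plus strand) has 1 of each, and IL1A (chr2:112784444-112784743, minus strand) has 2 AP-1 matches and none to the NF-kB motif.
CXCL8: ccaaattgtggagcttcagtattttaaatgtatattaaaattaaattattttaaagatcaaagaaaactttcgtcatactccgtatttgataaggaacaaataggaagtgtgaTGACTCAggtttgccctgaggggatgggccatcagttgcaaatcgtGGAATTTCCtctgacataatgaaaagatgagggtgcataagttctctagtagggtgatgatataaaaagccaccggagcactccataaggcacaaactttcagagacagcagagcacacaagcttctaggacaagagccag
IL1A: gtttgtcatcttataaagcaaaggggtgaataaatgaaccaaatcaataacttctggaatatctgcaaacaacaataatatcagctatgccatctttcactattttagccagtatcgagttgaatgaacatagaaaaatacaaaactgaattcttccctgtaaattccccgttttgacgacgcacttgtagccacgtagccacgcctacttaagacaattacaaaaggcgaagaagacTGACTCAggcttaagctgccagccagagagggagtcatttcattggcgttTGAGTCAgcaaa
The AP-1 motif was found in 6.14% of the promoters of higher genes (34 of 554) and 3.63% of those of lower genes (25 of 688), against 4.62% of tested genes and 7.76% of all 27305 promoters. The NF-kB motif was in 20% of the higher, 23.0% of the lower and 23.3% of the tested genes. No test was run on these shares.

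Targets of FOXO factors and arrestin-family genes, which are high when insulin signalling is low, had 7 of 17 lower and 0 higher (median log2 fold change -0.27). The share called was 41.2%, against 15.8% of all genes. KLHL24, a ubiquitin ligase adaptor, had 6.10 and 6.12 in siSMRT cells, against 7.17 and 7.23 in siCtl cells (-1.09, SE 0.15, adjusted p = 0.000846). CCNG2, a growth-arrest cyclin, had 8.72 and 8.60 with siSMRT and 9.70 and 9.26 with siCtl (-0.82), and PIK3IP1, an inhibitor of PI3 kinase, had 5.92 and 5.95 with siSMRT and 6.53 and 6.90 with siCtl (-0.78). The arrestin gene ARRDC3 fell by 0.56, with 7.33 and 7.38 in siSMRT cells and 7.89 and 7.94 in siCtl cells. These 4 kept their calls under every alternative. TXNIP (-0.68), CITED2 (-0.49) and TRIB2 (-0.47) were the other members called, and FOXO1 and FOXO3 themselves were not. Promoters of the 7 called members were searched for the FOXO motif (TGTTTAC). TXNIP and TRIB2 had a match, and KLHL24, CCNG2, PIK3IP1, ARRDC3 and CITED2 had none. The motif was in 1.62% of the higher, 3.2% of the lower and 2.19% of the tested genes, shares that were not tested. TXNIP, CITED2 and TRIB2 were not called without either siSMRT+vehicle array, TXNIP and TRIB2 without siCtl+vehicle replicate 1, and CITED2 and TRIB2 without siCtl+vehicle replicate 2. The list had 4 members lower without either siSMRT+vehicle array.

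Circadian clock genes gave 1 of 15 higher, RORA, and 5 lower (40% called, against 15.8% of all genes), with a median of -0.10. CLOCK, the activating subunit, had 7.94 and 8.21 in siSMRT cells, against 8.78 and 8.92 in siCtl cells (log2 fold change -0.77, SE 0.117, adjusted p = 0.00155), and a further probe gave -0.23 (adjusted p = 0.282). The output factor DBP had 7.28 and 7.19 with siSMRT and 8.64 and 7.81 with siCtl (-0.99), the repressor BHLHE41 fell by 0.52, and NR1D2 (REV-ERB beta, a receptor that works through NCoR and SMRT) and PER3 fell by 0.45 and 0.44. CLOCK was called in every alternative. PER3 was lost without siSMRT+vehicle replicate 1 (0.135), siSMRT+vehicle replicate 2 (0.106) or siCtl+vehicle replicate 1 (0.253, with a change of -0.25). DBP was lost without siSMRT+vehicle replicate 1 (0.0937), siSMRT+vehicle replicate 2 (0.108) or siCtl+vehicle replicate 1 (0.201, with a change of -0.57), BHLHE41 without any 1 of the 4 arrays (0.0857 and 0.112 without siSMRT+vehicle replicates 1 and 2, 0.101 and 0.0845 without siCtl+vehicle replicates 1 and 2), and NR1D2 without siSMRT+vehicle replicate 1 (0.191), siCtl+vehicle replicate 1 (0.137) or siCtl+vehicle replicate 2 (0.0669) and with no filter (0.0589). The other NR1D2 probe gave 0.19. In all, 1, 2 and 1 clock genes were lower without siSMRT+vehicle replicate 1, siSMRT+vehicle replicate 2 and siCtl+vehicle replicate 1, and 3 without siCtl+vehicle replicate 2.

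**Figure D2:**
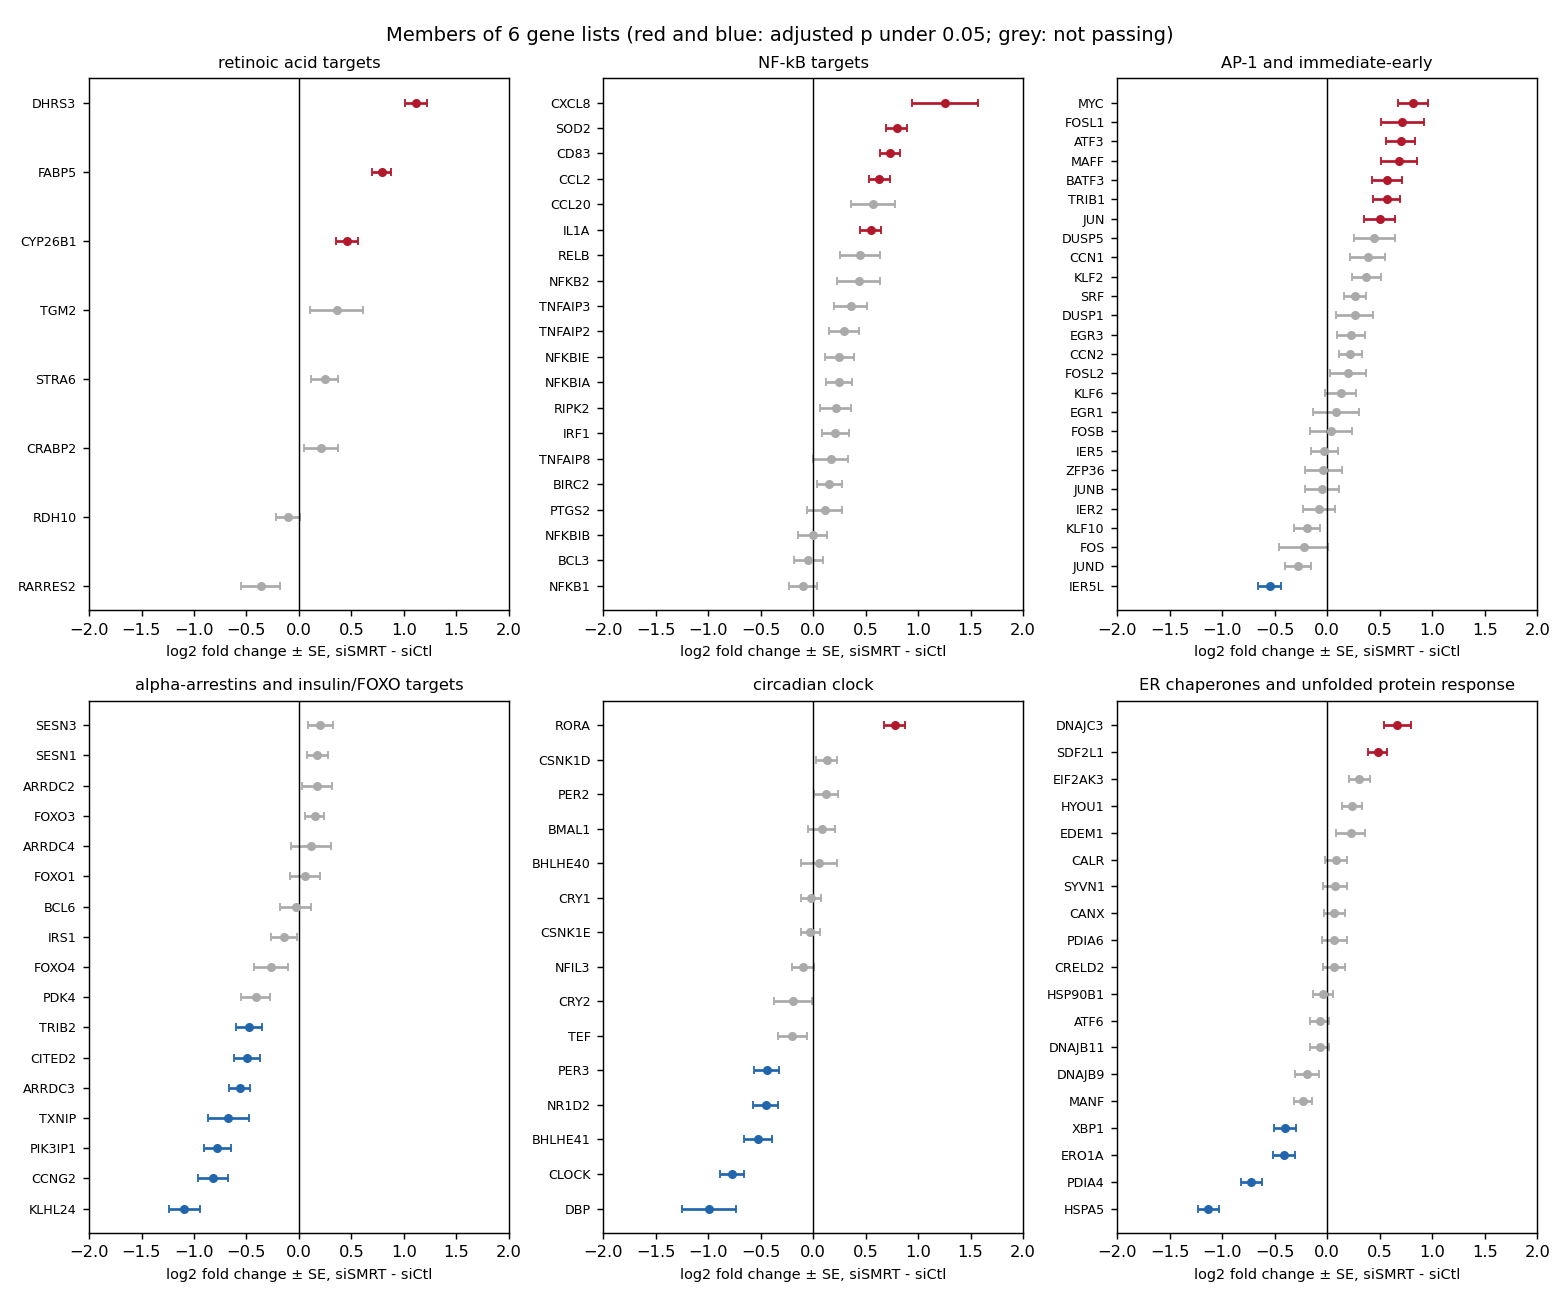
Log2 fold change of siSMRT against siCtl cells with vehicle (points, horizontal axis) and its standard error (bars) for every tested member of 6 gene lists. Red members were called higher and blue ones lower at an adjusted p under 0.05, and grey ones did not pass; NF-kB and AP-1 members lie mostly to the right of 0 and the called FOXO members all to the left.

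Chaperones of the endoplasmic reticulum divided. Of 19 tested members of the unfolded protein response 2 were higher and 4 lower, and the median was 0.06. The share called was 31.6%, against 15.8% of all genes. HSPA5, the main chaperone of the compartment, had 8.56 and 8.70 in siSMRT cells, against 9.71 and 9.82 in siCtl cells (log2 fold change -1.13, SE 0.102, adjusted p = 0.000139). The disulfide isomerase PDIA4 had 5.82 and 5.93 with siSMRT and 6.59 and 6.61 with siCtl (-0.73, SE 0.0995). XBP1, a transcription factor of this response, fell by 0.40 and the oxidase ERO1A by 0.41. In the other direction, DNAJC3, a co-chaperone of HSPA5, had 6.83 and 6.77 with siSMRT and 6.18 and 6.08 with siCtl (0.67), and SDF2L1 had 12.80 and 12.70 with siSMRT and 12.19 and 12.34 with siCtl (0.48). SDF2L1 lost its call without siCtl+vehicle replicate 1 (0.0529) and with median scaling (0.109). XBP1 was not called without any 1 of the 4 arrays (adjusted p from 0.0539 to 0.159), and ERO1A without siSMRT+vehicle replicate 1 (0.167), siCtl+vehicle replicate 1 (0.0598) or siCtl+vehicle replicate 2 (0.13). CANX (0.07), CALR (0.09) and HSP90B1 (-0.04), abundant chaperones of the same compartment, were not called. The list had 2 members lower without siSMRT+vehicle replicate 1, siCtl+vehicle replicate 1 or siCtl+vehicle replicate 2.

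The promoters of HSPA5 and XBP1 are shown because, among the first-listed promoters of the lower genes, these 2 carry the endoplasmic reticulum stress element (CCAAT and CCACG with 9 bases between them, in capitals, on either strand), which 13 of the 8075 tested genes with a promoter carry (0.161%, against 0.0806% of all promoters). HSPA5 lies at chr9:125241294-125241593 (minus strand) and XBP1 at chr22:28800520-28800819 (minus strand), both in GRCh38.p14 from RefSeq.
HSPA5: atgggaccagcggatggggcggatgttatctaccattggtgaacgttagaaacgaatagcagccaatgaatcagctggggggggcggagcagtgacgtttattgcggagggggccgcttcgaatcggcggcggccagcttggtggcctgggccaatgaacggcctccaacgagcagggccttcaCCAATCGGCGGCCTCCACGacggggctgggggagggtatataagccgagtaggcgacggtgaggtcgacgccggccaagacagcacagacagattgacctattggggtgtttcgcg
XBP1: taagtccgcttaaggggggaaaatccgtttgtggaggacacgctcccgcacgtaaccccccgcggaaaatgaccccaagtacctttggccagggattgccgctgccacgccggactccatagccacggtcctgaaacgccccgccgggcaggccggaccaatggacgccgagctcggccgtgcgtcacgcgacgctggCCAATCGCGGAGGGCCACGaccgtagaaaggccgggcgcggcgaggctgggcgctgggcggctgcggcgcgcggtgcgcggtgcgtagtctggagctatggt
The other 11 genes with the element were not called in either direction, HSP90B1, CANX, CALR and CRELD2 (0.06) among them, and their changes ran from -0.28 (SERP1) to 0.22 (FRG2B).

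Of 27 p53 targets 3 were lower and 0 higher (median -0.04), 11.1% called against 15.8% of all genes. The largest of these falls was that of the cell-cycle inhibitor CDKN1A. It had 10.93 and 10.99 in siSMRT cells, against 11.89 and 11.79 in siCtl cells (log2 fold change -0.88, SE 0.0859, adjusted p = 0.000167), though its second, much dimmer probe gave -0.27 (adjusted p = 0.186). TP53INP1, which promotes p53 phosphorylation, fell by 0.56 and CYFIP2 by 0.50. TP53INP1 lost its call without siSMRT+vehicle replicate 1 (0.107) or siCtl+vehicle replicate 1 (0.106), and CYFIP2 without siSMRT+vehicle replicate 1 (0.131), siCtl+vehicle replicate 1 (0.0558) or siCtl+vehicle replicate 2 (0.0819). PPM1D, the phosphatase that ends p53 signalling, had 10.33 and 10.20 with siSMRT and 10.48 and 10.13 with siCtl (-0.04), groups that overlap.

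Of 26 pro-apoptotic genes 3 were higher and 2 lower and 21 did not pass (median -0.04), and 19.2% called is near the 15.8% of all genes. The mitophagy receptors BNIP3L and BNIP3 fell: BNIP3L had 9.65 and 9.42 in siSMRT cells and 10.74 and 10.45 in siCtl cells (log2 fold change -1.06, SE 0.124, with -1.20 from a further probe), and BNIP3 had 10.22 and 10.15 with siSMRT and 10.73 and 10.99 with siCtl (-0.67). BCL2L11, the BH3-only gene BIM, had 8.15 and 8.25 with siSMRT and 7.84 and 7.47 with siCtl (0.55, adjusted p = 0.0203), and its other probes gave 0.86 and 0.05. MAP3K5, a stress kinase, rose by 0.61. BCL2L11 lost its call without siSMRT+vehicle replicate 1 (0.0698), siSMRT+vehicle replicate 2 (0.112) or siCtl+vehicle replicate 2 (0.147, with a change of 0.36) and with median scaling (0.146), and MAP3K5 without siSMRT+vehicle replicate 1 (0.0616) or siCtl+vehicle replicate 1 (0.0517). Among 11 anti-apoptotic genes API5 fell and BCL2 rose, 18.2% called. API5 had 9.42 and 9.34 with siSMRT and 10.29 and 10.27 with siCtl (-0.90, SE 0.0898), and BCL2 6.57 and 6.91 with siSMRT and 6.16 and 6.23 with siCtl (0.55). The call of BCL2 was lost without siSMRT+vehicle replicate 2 (0.0707) or siCtl+vehicle replicate 1 (0.0602).

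Of 36 G2/M genes 3 were lower (8.33%, against 8.54% of all genes) and 0 higher (median -0.05). CENPF, a kinetochore protein gene, had 9.85 and 10.02 in siSMRT cells and 10.51 and 10.54 in siCtl cells (log2 fold change -0.59, SE 0.0959). Of 32 G1/S and replication genes 3 were higher and 2 lower (median 0.08, or -0.05 with median scaling, where 0 were higher). The 15.6% called is near the 15.8% of all genes. Leaving out siSMRT+vehicle replicate 1, siSMRT+vehicle replicate 2, siCtl+vehicle replicate 1 and siCtl+vehicle replicate 2 in turn gave 1, 0, 1 and 0 higher G1/S genes and 1, 2, 2 and 1 lower G2/M genes. The G1 kinase CDK6 had 11.01 and 10.90 with siSMRT and 11.58 and 11.71 with siCtl (-0.69, SE 0.122). Of 25 repair and checkpoint genes 1 was higher and 3 lower, and the 16% called is near the 15.8% of all genes. In the same 4 fits 0 were higher and 1, 1, 1 and 2 lower, and MRE11, the higher gene and a nuclease of break repair, lost its call also with median scaling (0.562) and with the deposited processed values (0.0511). XRCC6, a subunit of the Ku end-binding complex, had 11.53 and 11.48 with siSMRT and 11.98 and 12.11 with siCtl (-0.54, with -0.53 from its second probe). CENPF, CDK6 and XRCC6 kept their calls under every alternative. The checkpoint kinase CHEK2 (-0.19, adjusted p = 0.166), PARP1 (0.03), MAX (0.18), SRPK2 (0.04) and the TGF-beta feedback inhibitor SMAD7 (-0.15) did not pass.

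TGF-beta and BMP genes were more often lower than higher: 7 of 26 fell and 2 rose (34.6% called), with a median of -0.20. Of all genes 8.54% were lower and 7.26% higher. BMPR2, a receptor for BMP ligands, had 7.02 and 6.98 in siSMRT cells, against 8.20 and 8.05 in siCtl cells (log2 fold change -1.12, SE 0.154, adjusted p = 0.000846), with -0.79 from a second probe. SMAD5, which carries the BMP signal, had 8.48 and 8.37 with siSMRT and 9.36 and 9.26 with siCtl (-0.89, SE 0.0958). The common partner SMAD4 fell by 0.44 and SMAD2 by 0.41, whereas SMAD3 rose by 0.38 and the ligand BMP2 by 0.58. ID2, a BMP target, fell by 0.69, but its other probe gave -0.38 and was not called (limma adjusted p = 0.215). SMAD4 was not called without any 1 of the 4 arrays (adjusted p from 0.0558 to 0.208), SMAD2 without siSMRT+vehicle replicate 1 (0.0583), siSMRT+vehicle replicate 2 (0.182) or siCtl+vehicle replicate 2 (0.189), and SMAD3 without siSMRT+vehicle replicate 2 (0.105) or either siCtl+vehicle array (0.0724 and 0.0573) and with median scaling (0.324, with a change of 0.23). BMP2 lost its call without siSMRT+vehicle replicate 1 (0.0735) or siCtl+vehicle replicate 2 (0.0551) and with median scaling (0.101), and ID2 without siSMRT+vehicle replicate 2 (0.0604) or siCtl+vehicle replicate 1 (0.0883). The list had 3 members lower and 1 higher without any 1 of the 4 arrays, and 0 higher with median scaling.

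Matrix genes were divided, with 3 of 27 higher and 4 lower, on a list that does not hold LAMB3. The share called was 25.9%, against 15.8% of all genes. COL5A2 had 7.65 and 7.71 in siSMRT cells and 9.08 and 8.74 in siCtl cells, LAMC1, a laminin chain, 10.59 and 10.63 with siSMRT and 11.40 and 11.45 with siCtl (log2 fold change -0.82, SE 0.108), and SPARC, a collagen-binding protein of bone, 9.09 and 9.22 with siSMRT and 9.82 and 9.77 with siCtl (-0.64). The matricellular gene CCN3 rose by 0.74, the collagen cross-linking oxidase LOX by 0.80 and the metalloproteinase MMP3 by 0.96 (11.57 and 11.42 in siSMRT cells, 10.44 and 10.63 in siCtl cells). COL5A2, LAMC1, SPARC, CCN3, LOX and MMP3 kept their calls without any 1 of the 4 arrays and with median scaling. Growth factors and receptors gave 4 of 25 higher and 4 lower (32% called, against 15.8% of all genes). FGF2 had 5.90 and 5.95 with siSMRT and 6.83 and 6.96 with siCtl (-0.97, SE 0.092), IGFBP7 fell by 0.69, and the receptors IGF1R and IGF2R rose by 0.42 and 0.41. IGFBP7 lost its call without siSMRT+vehicle replicate 2 (0.0649) or siCtl+vehicle replicate 1 (0.0707). IGF1R and IGF2R were not called without any 1 of the 4 arrays (adjusted p from 0.0823 to 0.102 for IGF1R and from 0.0514 to 0.121 for IGF2R) or with median scaling (0.205 for IGF1R, 0.273 for IGF2R), and the list had 1 member higher without siSMRT+vehicle replicate 2 or siCtl+vehicle replicate 2.

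Among markers of the line's origin, 3 of 7 tested osteoblast genes fell (SPARC, SPP1 and RUNX2, -0.32) and the alkaline phosphatase gene ALPL rose by 0.48. The share called was 57.1%, against 15.8% of all genes. The 14 on the array summed to intensities of 3017 and 3227 in siSMRT cells and of 3735 and 3863 in siCtl cells. RUNX2 and ALPL each lost their call in several alternatives, RUNX2 without any 1 of the 4 arrays (0.187 and 0.119 without siSMRT+vehicle replicates 1 and 2, 0.214 and 0.0842 without siCtl+vehicle replicates 1 and 2) and ALPL without siSMRT+vehicle replicate 1 (0.199) or siCtl+vehicle replicate 1 (0.215) and with median scaling (0.125). Epithelial genes were higher in part. EPCAM, an adhesion molecule, had 9.13 and 9.14 with siSMRT and 8.46 and 8.60 with siCtl (log2 fold change 0.61, SE 0.106), and it lost its call with median scaling (0.0593). Of 14 keratin and junction genes 2 were higher and 0 lower (median 0.28, or 0.14 with median scaling, where 0 were called), and 7 were higher with the replicate block. The 14.3% called is near the 15.8% of all genes. KRT75, the gene raised most, is not on this list, where the largest rise was that of EPCAM. KRT8 (0.26) and KRT18 (0.22) did not pass. The summed intensity of the 10 epithelial markers was 16190 and 17250 in the siSMRT arrays and 13820 and 14640 in the siCtl arrays, 7 of them under the floor. Of 2 endothelial markers tested 0 were called, and the 9 on the array summed to between 385.8 and 402.8 with siSMRT and between 384.6 and 407.5 with siCtl. Whether other cells contribute to these levels was not tested.

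For the groups that follow, the share of genes called can be set beside the 15.8% of all genes. It was 30.8% for neural and lineage genes and 22.7% for fatty acid handling. Adhesion and cytoskeleton genes had 15.6%, and the other groups had less. In glycolysis and hypoxia 2 of 26 fell, PGAM1, a glycolytic mutase (11.17 and 11.18 in siSMRT cells, 12.27 and 12.01 in siCtl cells, log2 fold change -0.97, SE 0.11), and BNIP3. Of 25 oxidative stress genes and NRF2 targets SOD2 rose and NQO1, a quinone reductase, fell by 0.97. The call of NQO1 was lost without siSMRT+vehicle replicate 2 or siCtl+vehicle replicate 1. With the replicate block 6 members of this list fell. Interferon-response genes gave 3 of 23 lower and 0 higher (median -0.13), IRF9, a subunit of the interferon-activated factor, by 0.56, IFI44L by 0.95 and TRIM22 by 0.67, TRIM22 with 0.0511 without siSMRT+vehicle replicate 2. With the replicate block 6 of them fell. Of 33 cytosolic ribosomal protein genes 3 were lower (RPS23 -0.95, RPL22 -0.80, RPL37 -0.65), genes whose many pseudogenes make a single probe uncertain. Notch pathway genes gave 0 calls among 15. Cholesterol synthesis had 1 lower of 17, fatty acid handling 1 higher and 4 lower of 22, ATF4 stress genes 2 higher and 1 lower of 26, heat shock genes 2 higher of 21, oxidative phosphorylation 1 higher and 1 lower of 29, adhesion and cytoskeleton genes 1 higher and 4 lower of 32, among them the caveolin gene CAV1 (-0.70), and neural and lineage genes 2 higher and 2 lower of 13. The 3 ribosomal protein genes and the 2 hypoxia genes were lower also without any 1 of the 4 arrays, while 0 ATF4 stress genes were higher and 0 oxidative phosphorylation genes were called in either direction, and 0 fatty acid genes were lower, without siSMRT+vehicle replicate 1, siSMRT+vehicle replicate 2 or siCtl+vehicle replicate 1. Heat shock genes had 0 higher without siSMRT+vehicle replicate 2 or siCtl+vehicle replicate 1, and a further probe of DNAJB6, 1 of the 2 higher genes, was called lower (-0.36, adjusted p = 0.017).

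**Figure D3:**
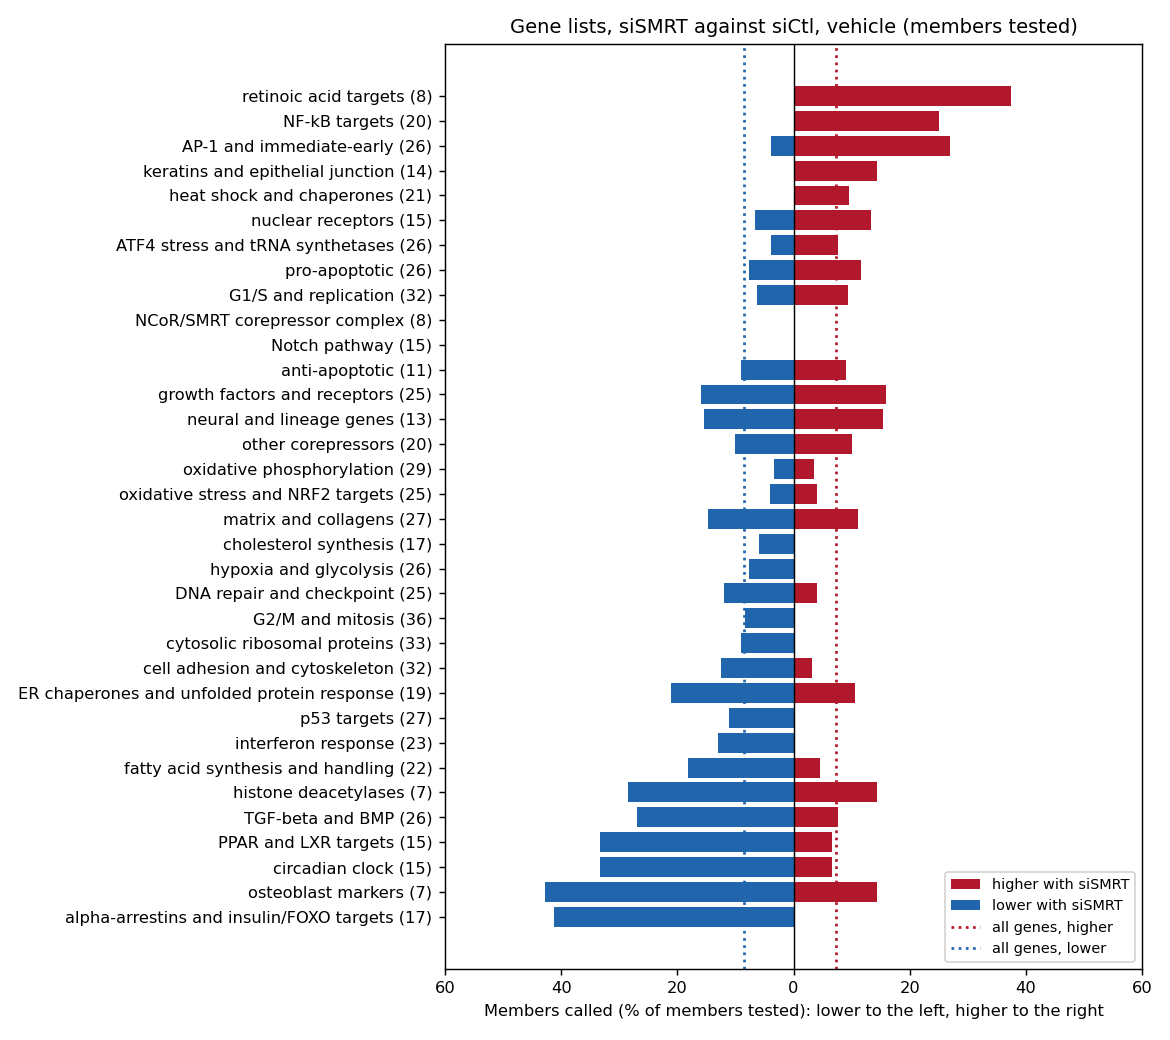
Percent of tested members called higher (red, to the right) or lower (blue, to the left) in siSMRT against siCtl cells with vehicle, for the 34 lists with at least 7 members tested (number in brackets). Dotted lines mark 7.26% and 8.54%, the shares of all genes called higher and lower; retinoic acid, NF-kB and AP-1 lists extend furthest to the right, and FOXO, osteoblast, clock and PPAR and LXR lists furthest to the left.

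Knock-down of NCoR was set beside that of SMRT. The siNCoR and siSMRT comparisons with siCtl share the siCtl+vehicle arrays, so only their values are given side by side, and the test is the direct one of siSMRT against siNCoR cells, in which 818 genes were higher (8.34%) and 1033 lower (10.5%), 18.9% of genes in all. The genes called in it numbered 1851 with all arrays, 864 and 1039 without siSMRT+vehicle replicates 1 and 2, and 1002 without siNCoR+vehicle replicate 1 or replicate 2. Against siCtl, siNCoR cells had 291 genes higher (2.97%) and 225 lower (2.29%), or 5.26%. KRT75 had 9.81 and 9.84 with siSMRT, 9.18 and 9.20 with siNCoR and 7.78 and 7.82 with siCtl, so that both siRNAs raised it, and siSMRT exceeded siNCoR by 0.63 log2 units (SE 0.118, adjusted p = 0.00349). MARCO was raised by both (siNCoR 1.25), and siSMRT and siNCoR differed by 0.32 (SE 0.15, adjusted p = 0.164). LCP1 was higher with siNCoR (1.82) than with siSMRT (1.19), a difference of -0.62 that did not pass (SE 0.217, adjusted p = 0.0663). CCN3 did differ: it rose less with siSMRT (0.74) than with siNCoR (1.70; difference -0.96, adjusted p = 0.000132).

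Other genes parted in direction. DHRS3 had 9.12 and 8.82 with siSMRT, 7.36 and 7.34 with siNCoR and 7.85 and 7.86 with siCtl, higher with 1 siRNA and lower with the other, and the difference between siSMRT and siNCoR was 1.62 (SE 0.104, adjusted p = 5.9e-06). HSPA5 had 8.56 and 8.70 with siSMRT, 10.15 and 10.20 with siNCoR and 9.71 and 9.82 with siCtl (difference -1.55, adjusted p = 6.39e-06), and LAMC1 fell with siSMRT and rose by 0.46 with siNCoR (difference -1.28). SPP1 had 7.08 and 6.67 with siSMRT, 9.23 and 9.06 with siNCoR and 7.86 and 7.43 with siCtl (difference -2.27, SE 0.188). In CYBRD1 (siNCoR -0.16, difference -1.86), CDKN1A (siNCoR -0.03, difference -0.85), CXCL8 (siNCoR -0.03, difference 1.28), SOD2 (siNCoR -0.19, difference 0.98) and FAM91A1 (siNCoR -0.04, difference 1.12) the siNCoR arrays lay near siCtl and the direct difference passed in each. Of the NF-kB targets 9 of 20 were higher with siSMRT than with siNCoR, and 0 lower, against 8.34% and 10.5% of all genes. This was not particular to NF-kB targets. Of 32 G1/S genes 10 were higher with siSMRT than with siNCoR and 0 lower, and of 36 G2/M genes 8 were higher and 1 lower.

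**Figure D4:**
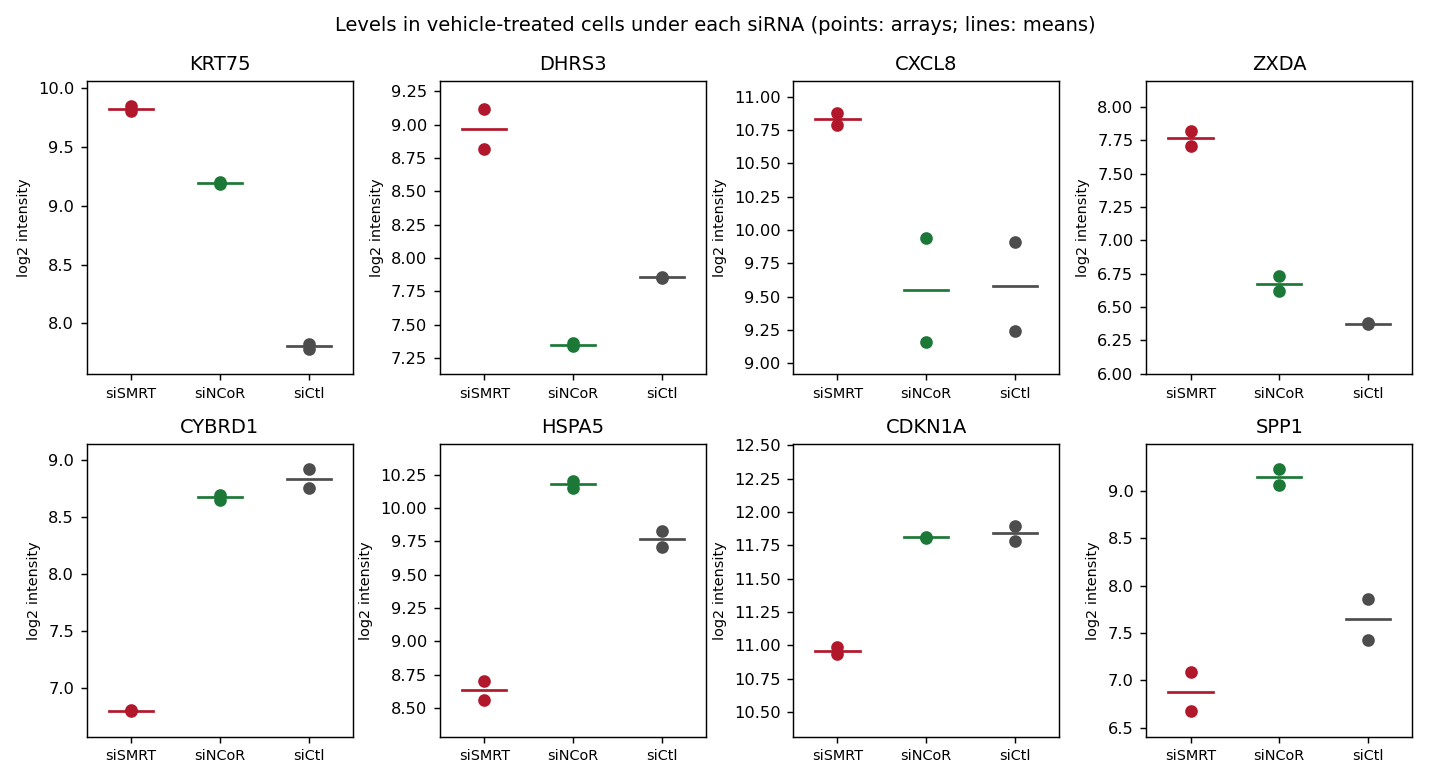
Levels (log2 intensity, vertical axis) of 8 genes in the vehicle-treated arrays with siSMRT (red), siNCoR (green) and siCtl (grey); points are arrays and lines group means. KRT75 is raised by both siRNAs, DHRS3, HSPA5 and SPP1 move to opposite sides of siCtl, and CXCL8, CYBRD1 and CDKN1A differ with siSMRT alone of the 2 siRNAs at the threshold used.

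The same siRNA comparison was measured in cells given CDDP, on 4 arrays that have no array in common with the vehicle comparison. There 774 genes were higher (7.89%) and 922 lower (9.4%) in siSMRT than in siCtl cells, 17.3% of genes. Of the 712 genes higher with vehicle, 339 were called higher with CDDP as well (47.6% of the 712, and 43.8% of the 774) and 1 was called lower. Of the 838 lower genes, 474 were called lower with CDDP (56.6% of the 838, and 51.4% of the 922) and 0 higher. Across the 9808 genes the log2 fold changes with CDDP and with vehicle had a Pearson correlation of 0.699, a description in which genes are not independent. The median change of the higher genes was 0.34 with CDDP and 0.48 with vehicle, and of the lower genes -0.40 with CDDP and -0.51 with vehicle, the genes having been chosen by their vehicle values.

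KRT75 was at 9.83 and 9.92 in siSMRT+CDDP cells and at 8.0 and 8.16 in siCtl+CDDP cells (log2 fold change 1.80), CYBRD1 at 7.23 and 7.43 in siSMRT+CDDP cells and at 8.93 and 9.19 in siCtl+CDDP cells (-1.73), and PIGS gave -1.49 with CDDP. DHRS3 (0.92), MARCO (1.53), SOD2 (0.72), CDKN1A (-0.90), API5 (-0.85), HSPA5 (-0.74) and BMPR2 (-0.94) were called in the same direction in CDDP-treated cells. By contrast, the siSMRT values of MYC (-0.09 with CDDP, 0.82 with vehicle), ID2 (0.02 with CDDP, -0.69 with vehicle) and ARRDC3 (0.07 with CDDP, -0.56 with vehicle) were not called with CDDP, but their differences between the conditions did not pass either (adjusted p = 0.231, 0.398 and 0.231, in that order). In the test of the difference 1 gene of 9808 (0.0102%) had an adjusted p under 0.05, against 897 at an unadjusted p under 0.05. It was ZXDA, which had 6.61 and 6.34 in siSMRT+CDDP cells and 6.29 and 6.50 in siCtl+CDDP cells, groups that overlap, against 7.71 and 7.82 in siSMRT+vehicle cells and 6.38 and 6.37 in siCtl+vehicle cells (difference -1.30, SE 0.163, adjusted p = 0.0368). That call was lost without siSMRT+vehicle replicate 1 (0.171), siSMRT+vehicle replicate 2 (0.377), siCtl+vehicle replicate 1 (0.256), siCtl+vehicle replicate 2 (0.1), siSMRT+CDDP replicate 2 (0.234), siCtl+CDDP replicate 1 (0.0625), siCtl+CDDP replicate 2 (0.285) or either siNCoR+vehicle array (0.0811), whereas 2 further ZXDA probes gave rises of 1.52 and 1.51 with vehicle. NRIP1 was the gene called lower with CDDP (-0.61) and higher with vehicle (0.53), and the difference of -1.14 had an adjusted p = 0.231.

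**Figure D5:**
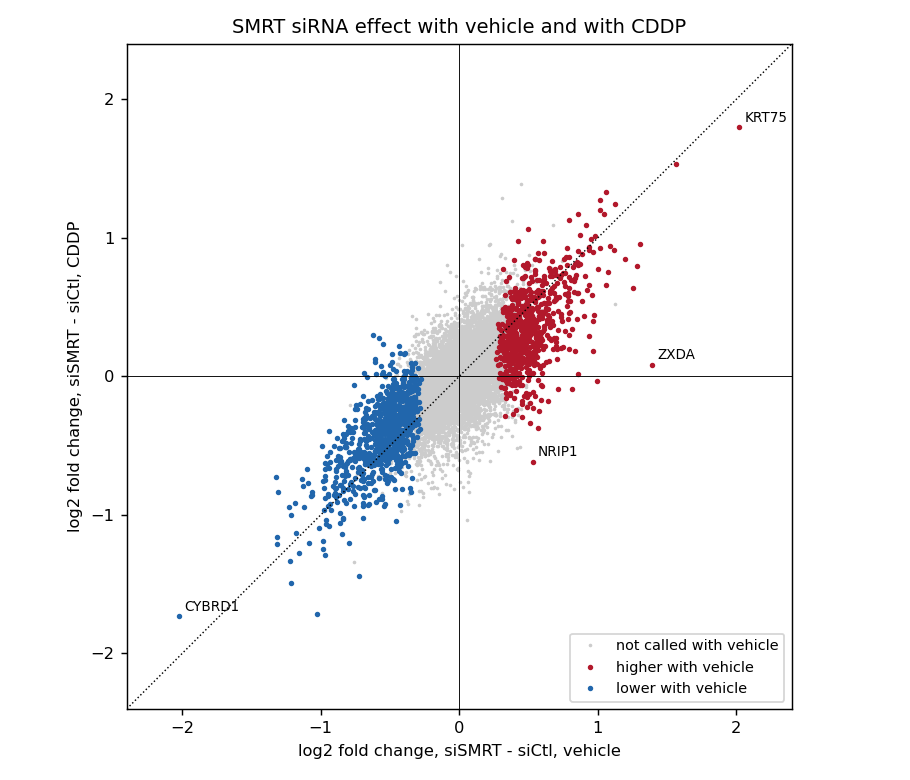
Log2 fold change of siSMRT against siCtl cells with vehicle (horizontal axis) and with CDDP (vertical axis) for 9808 genes; red and blue points were called higher and lower with vehicle, grey points were not, and the dotted line marks equal changes. KRT75 and CYBRD1 lie near the line at its 2 ends, and ZXDA and NRIP1 lie well below it.

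The response to CDDP in siNCoR cells shares no array with the comparison of siSMRT and siCtl cells. Of the 712 higher genes 22.8% rose and 24.2% fell with CDDP in siNCoR cells, and of the 838 lower genes 19.0% rose and 23.7% fell, against 19.6% and 21.2% of all genes (40.7% in either direction). The transcription units of the called genes had a median length of 35.5 kb for higher and 37.5 kb for lower genes, against 29.0 kb for all genes tested. A second probe checked part of the calls. For 167 of the higher genes 211 other probes were kept, of which 171 had the same sign, 68 were called the same way and 10 the opposite way, and for 205 of the lower genes 242 other probes gave 195 of the same sign, 106 called the same way and 6 the opposite way.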

How the data were processed

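RNA of U2OS cells (12 arrays, 6 groups of 2) had been hybridised to one-colour Illumina BeadChips. The authors deposited scanner intensity values for every probe, summarised in BeadStudio, and a table of processed intensity values, used here as an alternative. Here the scanner values of 48803 probes were background-corrected (normexp, offset 16), quantile normalized, put on the log2 scale and fitted in limma 3.58.1 (R 4.3.3) with 1 mean per group and 6 residual degrees of freedom; p-values were adjusted by Benjamini-Hochberg over 9808 genes. Kept probes had a signal above 100 in both arrays of at least 1 group (14801 probes, 12638 of them with 1 gene), and the brightest probe stood for a gene. The platform annotation names 1 gene for 27578 probes, several for 13 and none for 21212. The level of the targeted gene is not reported here.

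The comparison, the 38 gene lists and their members were chosen with earlier results of these data known. Named genes are the 12 largest called rises and falls and called list members; further genes were named after their values were seen. Same-numbered arrays deviated together in all 15 pairs of groups (correlations 0.2031 to 0.42), and replicate 1 was brighter in 6 of 6 groups, so the replicate number was also fitted as a block. P-values cover the spread between 2 arrays labelled as biological duplicates. Alternatives were the background correction, scaling, filter, probe rule, block, arrays in the fit, the deposited processed values and each array left out. The fit was tested on simulated data.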

Additional observations from a re-analysis of the deposited data

Results flagged for a closer look

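The effect of siSMRT on ZXDA differed between CDDP-treated and vehicle-treated cells by -1.30 log2 units (SE 0.163, limma adjusted p = 0.0368), the 1 gene of 9808 that passed the test of the difference. The change was 0.09 with CDDP and 1.39 with vehicle, where 2 further ZXDA probes gave 1.52 and 1.51. Its paralog ZXDB had a difference of -1.02 (adjusted p = 0.231). Over the alternatives the adjusted p of the ZXDA difference ran from 0.0163 with the replicate block to 0.377 without siSMRT+vehicle replicate 2, and it was over 0.05 also with median scaling (0.0856), with no filter (0.0768) and with only the arrays compared (0.059).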

How the results depend on the processing

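Across 21 alternatives, 60 of the 118 called genes followed kept their call in each. All 118 kept their direction, but most of the alternatives could not turn it. The groups of a called gene did not overlap, so leaving out 1 array keeps the sign. The block and the leaving out of arrays from other groups do not move the change at all. Median scaling gave 160 genes higher, 0 genes whose siSMRT effect differed between CDDP and vehicle, and 1144 genes called against siNCoR. With no filter on signal 411 genes were higher and 558 lower, and 0 differed between CDDP and vehicle, as was so when only the arrays compared were fitted. The replicate block gave 1115 higher and changed no call of the 712 and 838. With 1 array left out the higher genes numbered 222 to 746, the lower 321 to 860, those whose effect differed with CDDP 0 to 3, and those called against siNCoR 864 to 1933. Among uncalled genes, the sign turned with median scaling for HDAC3 (-0.0886), SRPK2 (-0.1166) and PARP1 (-0.0684). It turned with 1 array left out for SRPK2 (-0.0991 to 0.1812), PARP1 (-0.0405 to 0.0982), SMAD7 (-0.3145 to 0.0237) and PPM1D (-0.2139 to 0.1336). The cause of these shifts was not tested. The number of arrays limits which changes can be called.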
